A study of Triticum aestivum with 42 samples.

Results

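The transcripts described here rose strongly in the leaves of cold-treated Harnesk wheat while their level in the crown stayed close to where it began. They are probe-sets (the sets of short probes by which the Affymetrix Wheat Genome Array reads a transcript) chosen by measured values. On both Harnesk leaf arrays of 9 weeks the level was at least 5 times that on either leaf array of 3 weeks, and the crown mean of 9 weeks was between 0.67 and 1.5 times that of 3 weeks. Of 61179 probe-sets, 188 met the rule, after the removal of the array's 111 control probe-sets and of 4 probe-sets set aside by identifier or gene symbol, 1 of which had met the rule. They belong to 159 transcript clusters (probe-sets whose identifiers share a stem), so some of the 188 read the same transcript. The leaf part of the rule alone was met by 352 probe-sets, 0.575% of all. Since these values chose the members, they are given below as a description and carry no test.

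Leaf and crown meet the autumn in different ways. The leaf blade captures light, exports sugar and senses day-length, and in cold it is known to change its sugar stores, its membranes and its protective and defence proteins. The crown holds the shoot apex from which a winter cereal regrows, and its survival decides the winter hardiness of the plant.

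The question put to these arrays is which transcripts follow the decline in temperature, light and day-length in each tissue. Harnesk is a winter wheat that needs prolonged cold before it can flower. At the 3-week harvest its plants had had 16°C days, 14°C nights and a 14 h photoperiod. Light, temperature and day-length were then lowered in steps, so that days and nights were at 14°C and 10°C with a 12 h photoperiod by the 5-week harvest, and at 8°C and 4°C with a 9 h photoperiod by the 9-week harvest. Each tissue and week has 2 Harnesk arrays, labelled as biological replicates, 12 in all, and each RNA came from 4 pooled plants. The controls are plants of Solstice, another winter variety, whose light and day-length declined in the same way while days stayed at 16°C and nights at 14°C, with a single array for each tissue and harvest, 6 in all. Harnesk and control plants therefore differ in variety as well as in temperature, and these cannot be told apart. The crown samples held the apex with some stem and immature leaf bases, so they contain young leaf tissue. In such bulk tissue a fall in the number of cells of a type and less RNA per cell cannot be told apart.

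A level below is the deposited ratio, on a linear scale, of a probe-set's signal to its own median over arrays. It compares arrays for 1 probe-set and does not rank probe-sets by abundance. No detection calls were used, so a flat crown level does not show that a transcript was detected there. Control levels may not share a scale with Harnesk levels for every probe-set, so each series is read chiefly against itself. The 24 arrays of Paragon and of vernalised Solstice were not used, since their values do not stand in the order of the probe-set identifiers. On the 18 arrays used, the correlation between adjacent rows was higher within a transcript cluster than between clusters by 0.403 to 0.651, and on those 24 the gap was -0.141 to 0. Rank correlations between Harnesk replicates were 0.815 to 0.847. The 9-week control leaf array stands apart. Its rank correlations to the remaining control leaf arrays averaged 0.101, whereas the 3-week and 5-week arrays averaged 0.436 and 0.445 on the same measure. The control crown array of 3 weeks had a wide spread, with 0.781 log2 between its quartiles against 0.338 to 0.505 on the Harnesk crown arrays. The marker genes below were picked by symbol from earlier results of these data, so they are no independent check of the tissue labels. Of 16 probe-sets of histone genes that mark dividing cells, 15 were lower in leaf than in crown at each harvest, in Harnesk and in the controls. The leaf markers, a list of photosynthesis genes and the catalase gene CAT1, matched 38 probe-sets. Of these, 30 to 34 were higher in leaf in Harnesk and 29 to 35 in the controls. The median leaf minus crown difference of the 38 was under 2-fold at each harvest. It was 0.78 to 0.99 log2 in Harnesk and 0.57 to 0.80 in the controls.

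Across the 188 probe-sets, the median level in Harnesk leaf was 1.13 at 3 weeks, 1.71 at 5 weeks and 10.8 at 9 weeks (means of 2 arrays per probe-set). In Harnesk crown the medians were 0.769, 0.764 and 0.807 in the same weeks. The ratio of the lower 9-week to the higher 3-week leaf array had a median of 8.02 and reached 72.2. It was at least 10 for 73 probe-sets, at least 20 for 19 and at least 50 for 5. The 2 probe-sets just inside the threshold were Ta.5634.1.S1_at, with a ratio of 5.006, and Ta.21353.2.S1_at, with 5.014. Just outside it stood Ta.10438.1.S1_x_at with 4.989 and Ta.12255.1.A1_at with 4.969, so the edge falls inside a continuous range of ratios. In the week the rule did not use, the crown mean was 0.476 to 1.39 times the mean of the 3-week and 9-week crown arrays (median 0.975), and between 0.67 and 1.5 times for 185 members (98.4%, against 98.6% of all probe-sets).

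**Figure D1:**
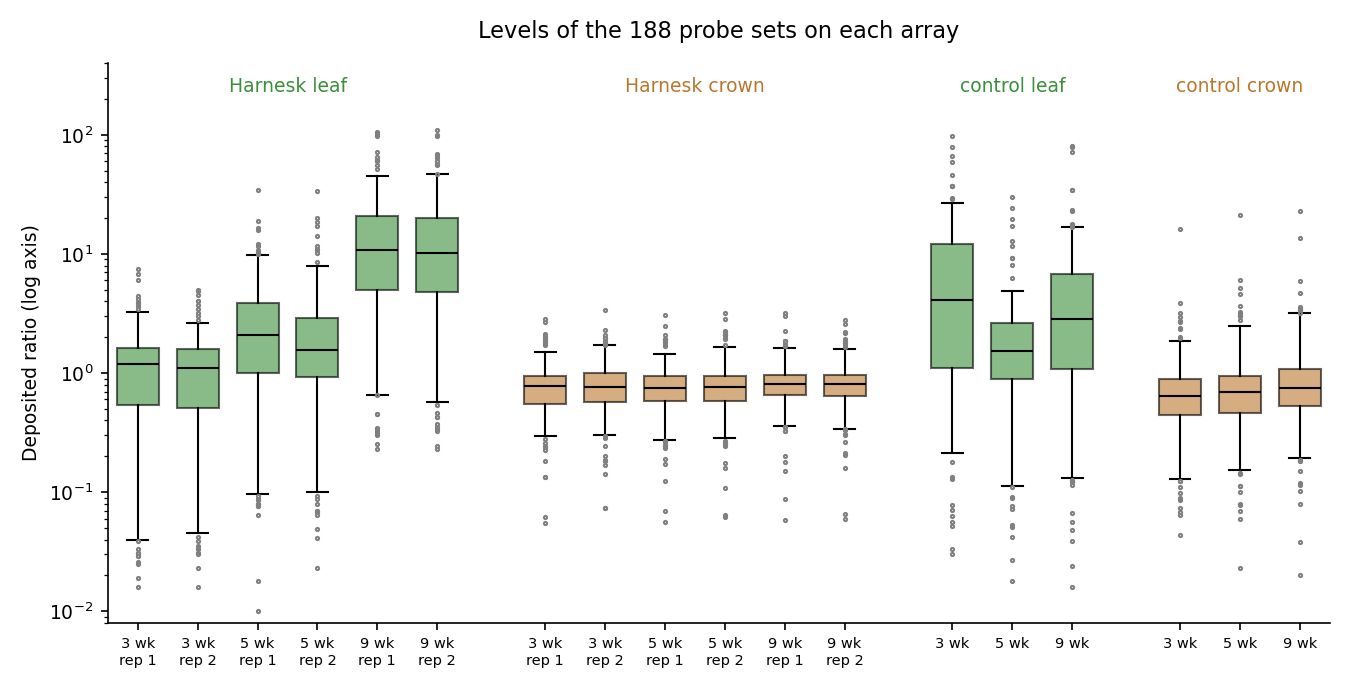
Levels (deposited ratio, log axis) of the 188 probe-sets on each of the 18 arrays, as boxes of the quartiles with the median as a line, whiskers at the 5th and 95th percentiles and points beyond them. Harnesk leaf medians climb to 10.8 and 10.1 on the 9-week arrays while the 6 Harnesk crown medians stay between 0.748 and 0.806, and the control leaf medians are 4.11, 1.53 and 2.84 at 3, 5 and 9 weeks.

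Few of these transcripts can be given a name. Gene symbols cover 1273 probe-sets of the array, and 16 of the 188 have one (8.51%, against 2.08% of all). The 16 read 13 genes, all found in the RefSeq gene table of wheat under a locus number with no synonym or gene title, so no function is attached to them here. The lists of defence, cold acclimation, gibberellin, fructan, oxidative stress, phenylpropanoid, jasmonate, transcription factor, transporter and photosynthesis genes matched 73 probe-sets by symbol or synonym, and 0 of these were among the 188. Since the lists reach 0.119% of all probe-sets, this count says nothing about those pathways. The other 172 members are known here by identifier alone. Probe-sets of type x_at, whose probes can also hybridise to other transcripts, made up 36 of the 188 (19.1%, against 11.1% of all), and for these the transcript that was read is uncertain. Identifiers that begin with TaAffx made up 47 (25%, against 48.5% of all).

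The steepest rise was that of a pair of probe-sets of cluster Ta.13337. Ta.13337.2.S1_x_at stood at 0.861 and 1.377 on the Harnesk leaf arrays of 3 weeks, 12.12 and 18.65 at 5 weeks and 101.3 and 99.45 at 9 weeks. Its 6 Harnesk crown arrays lay between 0.51 and 0.70. The 3 pairs of leaf arrays did not overlap one another, and every leaf array was above every crown array. Ta.13337.2.S1_at read much the same, with 1.047 and 1.54 at 3 weeks, 15.95 and 20.08 at 5 weeks and 106.6 and 109.9 at 9 weeks. Of the other 2 probe-sets of the cluster, Ta.13337.1.S1_at rose as steeply in leaf (96.0 times, between means) but had a crown ratio of 1.66, and Ta.13337.3.A1_at did not follow the rise (1.12 times).

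Next in order came TaAffx.54541.1.S1_at and Ta.20121.1.S1_x_at. TaAffx.54541.1.S1_at stood at 1.243 and 1.823 at 3 weeks, 2.451 and 1.78 at 5 weeks and 98.8 and 97.98 at 9 weeks in Harnesk leaf, with 0.825 to 1.072 on the crown arrays. Its leaf arrays of 3 and 5 weeks overlapped, and by 5 weeks it had covered 7.84% of its log2 rise. Ta.20121.1.S1_x_at stood at 1.266 and 1.091, then 4.845 and 3.286, then 64.97 and 69.25 in leaf, against 0.627 to 0.77 in crown. By 5 weeks Ta.20121.1.S1_x_at had covered 30.2% of its log2 rise. For both, leaf was above crown at all 3 harvests.

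The remaining 6 of the 10 members with the largest ratios began in leaf at levels well under their crown levels. Ta.2788.1.A1_at, which reads LOC542774, stood at 0.031 and 0.034 in Harnesk leaf at 3 weeks, 0.293 and 0.202 at 5 weeks and 1.716 and 1.708 at 9 weeks, against 1.132 to 1.409 on the 6 crown arrays. Leaf was thus below crown at the first harvests and above it at the last. Ta.2278.2.S1_at followed the same course, with leaf levels of 0.033 and 0.031, then 0.08 and 0.068, then 1.466 and 1.665, against 0.746 to 1.343 in crown. Ta.13380.1.S1_at stayed at 0.092 to 0.156 in leaf until 5 weeks and stood at 5.862 and 6.273 at 9 weeks, against 1.054 to 1.61 in crown. Ta.22673.1.S1_s_at, which reads LOC543498, stood at 0.199 and 0.272, then 1.483 and 1.135, then 8.891 and 8.758 in leaf, against 1.001 to 1.233 in crown. In this last one leaf drew level with crown at 5 weeks and passed it at 9 weeks.

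**Figure D2:**
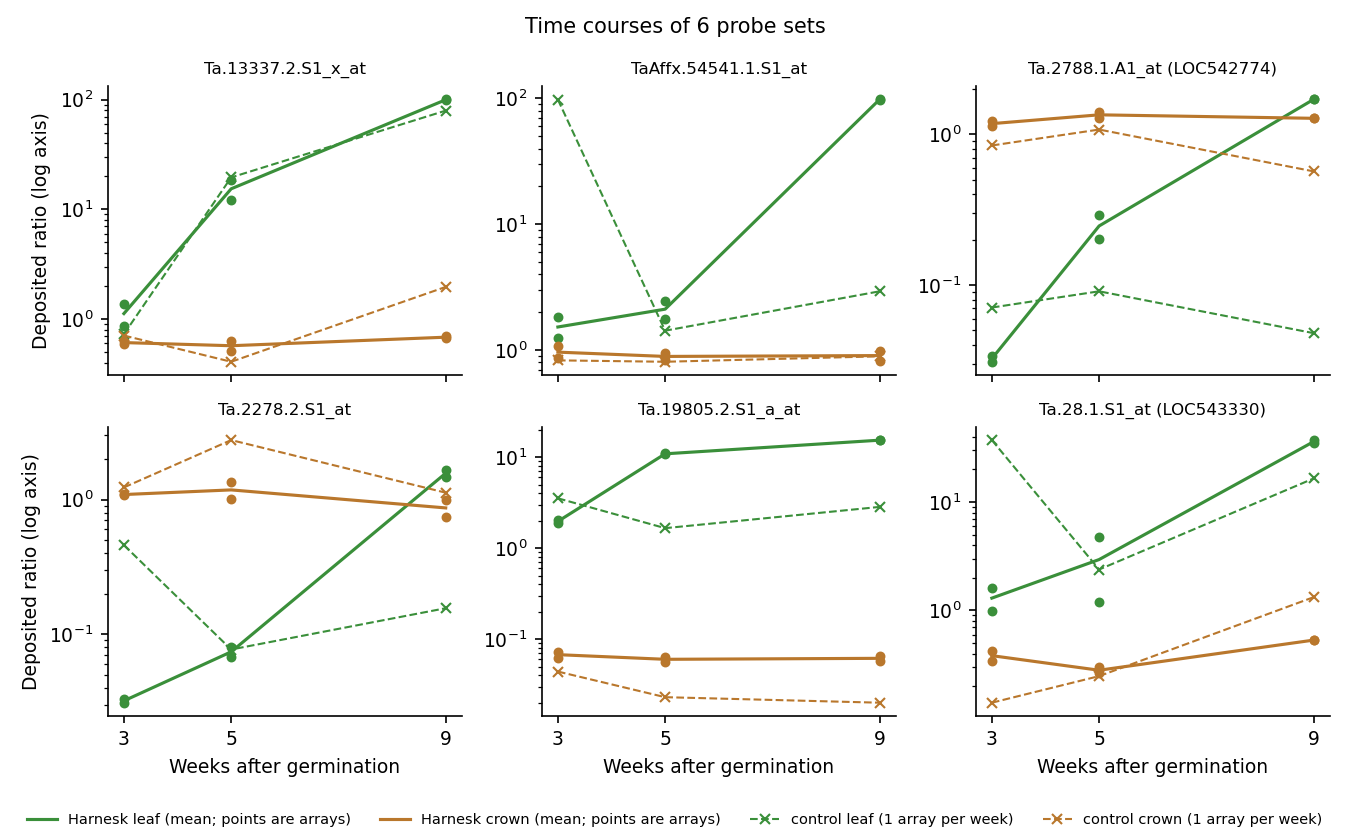
Levels (deposited ratio, log axis) at 3, 5 and 9 weeks for 6 probe-sets in Harnesk leaf and crown (lines through the mean of 2 arrays, points are the arrays) and in control leaf and crown (dashed, crosses, 1 array per week). Ta.13337.2.S1_x_at climbed in Harnesk leaf and in control leaf alike, TaAffx.54541.1.S1_at was at 98.08 in control leaf at 3 weeks, LOC542774 and Ta.2278.2.S1_at crossed from below the crown to its level or above, and Ta.19805.2.S1_a_at was above the crown throughout.

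The level relative to crown was tested on the 5-week Harnesk arrays, which the rule did not use. With limma's moderated test over all 61179 probe-sets (Benjamini-Hochberg adjusted p under 0.05 and at least 2-fold), 107 of the 188 (56.9%) were higher in leaf and 31 (16.5%) were lower, while 50 passed in neither direction. Among all probe-sets 10.7% were higher in leaf and 17.7% were lower. The median leaf minus crown difference was 1.27 log2 over the members and 0.15 over all probe-sets, and members ranged between -7.04 and 7.51. Most of the transcripts were thus already higher in leaf than in crown before the 9-week harvest, and a minority were lower. The methods' t-test with adjustment called 66 members higher and 23 lower. Leaving out the probe-sets in the lowest quartile of the mean ratio on these 4 arrays removed 31 of the 31 lower members, so none of them could be tested under that filter.

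The 107 probe-sets higher in leaf at 5 weeks had median leaf levels of 1.53, 3.10 and 17.3 at 3, 5 and 9 weeks, against 0.611, 0.632 and 0.686 in crown. For 101 of them both leaf arrays were already above both crown arrays at 3 weeks. The largest difference was that of Ta.19805.2.S1_a_at, at 10.87 and 11.02 in leaf and 0.056 and 0.064 in crown (7.51 log2, SE 0.14, adjusted p = 2.04e-08). Its leaf arrays stood at 1.915 and 2.028 at 3 weeks and 15.44 and 15.43 at 9 weeks, so most of its rise had taken place by 5 weeks. Ta.14946.1.S1_at stood at 9.945 and 7.159 in leaf and 0.069 and 0.062 in crown (7.01 log2, SE 0.18, adjusted p = 3.93e-08), and Ta.24857.2.S1_s_at at 34.3 and 34.09 in leaf and 0.423 and 0.426 in crown (6.33 log2, SE 0.13, adjusted p = 2.17e-08). Both had leaf arrays far above those of crown at every harvest. Ta.13337.2.S1_at (5.20 log2, SE 0.16, adjusted p = 7.28e-08) and Ta.192.1.S1_at, which reads LOC543235, complete the 5 largest. LOC543235 stood at 4.323 and 3.292 in leaf and 0.123 and 0.109 in crown (5.03 log2, SE 0.17, adjusted p = 1.27e-07).

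The 31 probe-sets lower in leaf at 5 weeks had median leaf levels of 0.084, 0.173 and 0.946 at 3, 5 and 9 weeks, against 1.30, 1.31 and 1.21 in crown. Both leaf arrays were below both crown arrays for 31 of 31 at 3 weeks. At 9 weeks 16 were still below crown on both arrays and 14 were above it. Ta.7445.1.S1_x_at had the lowest difference, with 0.01 and 0.041 in leaf and 2.496 and 2.842 in crown at 5 weeks (-7.04 log2, SE 0.53, adjusted p = 9.62e-06). It is the 1 member with an array at the lowest value of the table, 0.01, so the size of its difference is uncertain. Ta.7108.1.S1_at stood at 0.018 and 0.023 in leaf and 2.103 and 2.237 in crown (-6.74 log2, SE 0.16, adjusted p = 2.86e-08), and at 0.304 and 0.324 in leaf at 9 weeks. Its leaf level after the rise was therefore still well under that of crown. The next were 3 of the 4 probe-sets of cluster Ta.2789, with differences of -4.91 for Ta.2789.2.S1_at, -4.84 for Ta.2789.2.S1_x_at and -4.54 for Ta.2789.1.S1_a_at.

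The 50 probe-sets that passed in neither direction had median leaf levels of 0.892, 1.14 and 7.26 against 0.881, 0.880 and 0.885 in crown. At 9 weeks both leaf arrays were above both crown arrays for 50 of 50. This follows in part from the rule, since a flat crown and a steep leaf must part.

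**Figure D3:**
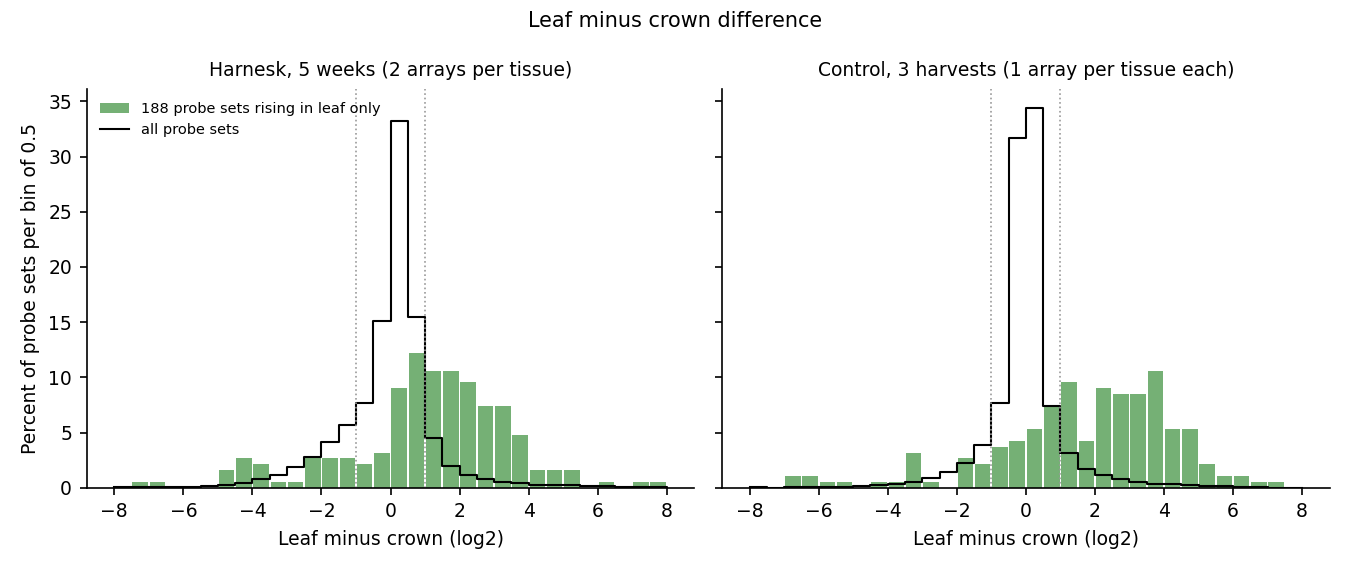
Leaf minus crown difference (log2, x axis) as the percent of probe-sets per bin of 0.5 (y axis), in Harnesk at 5 weeks (left) and in the controls over 3 harvests (right). Green bars are the 188 probe-sets, the black outline is all 61179 and dotted lines mark 2-fold, and the bars reach from -7.04 to 7.51 in Harnesk with a median of 1.27, against 0.15 for all probe-sets.

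For most members the larger part of the rise came after the 5-week harvest. On the log2 scale the leaf mean of 5 weeks had covered a median of 27.3% of the distance between the 3-week and 9-week means (quartiles 10.4% and 41.5%). Of the 188, 156 (83.0%) had covered under 50%, and 82 of these under 25%. The 5-week harvest is nearer in time to that of 3 weeks than to that of 9 weeks. A steady log2 rise would therefore also be under 50% at 5 weeks. Both 5-week leaf arrays were above both 3-week arrays for 135 members and below them for 7, against 19.0% and 24.0% of all probe-sets. The members were chosen for low 3-week values, which favours the first of these counts. Both 9-week arrays were above both 5-week arrays for 186 members, against 27.0% of all probe-sets, a count that the choice of members for high 9-week values favours. The exceptions, TaAffx.128483.2.S1_at and TaAffx.43914.1.S1_s_at, are named after their values were seen. TaAffx.128483.2.S1_at stood at 0.661 and 0.798, then 11.67 and 10.17, then 4.806 and 4.312 in Harnesk leaf, and TaAffx.43914.1.S1_s_at at 0.202 and 0.251, then 2.621 and 2.218, then 1.572 and 1.5. These peaked at 5 weeks. In crown, both 5-week arrays were above both 3-week arrays for 45 members and below for 37, against 20.4% and 19.5% of all probe-sets (23.9% and 19.7% of the members).

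**Figure D4:**
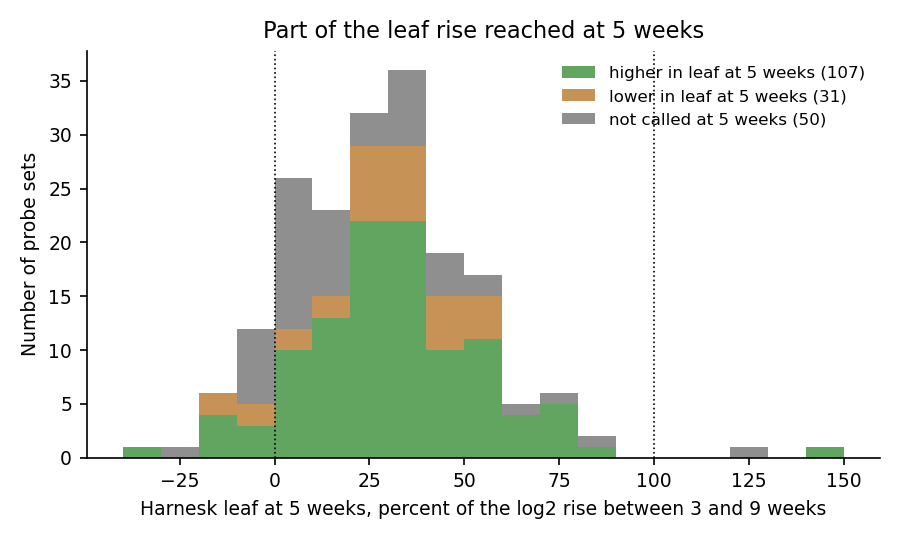
Number of probe-sets (y axis) by the percent of their log2 rise between 3 and 9 weeks that Harnesk leaf had reached at 5 weeks (x axis), stacked by the call of leaf against crown at 5 weeks, with dotted lines at the 3-week level (0) and the 9-week level (100). The median is 27.3%, and 2 probe-sets lie beyond 100%.

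Several probe-sets of a transcript cluster were members in 23 clusters, with 52 members in all, 19 of the clusters with 2 members and 4 with more. Each of these had to rise at least 5-fold in leaf, so a like rise within a cluster follows from the rule. The 5-week level relative to crown does not follow from it. In many of these clusters, however, the identifiers differ in the suffix alone, as in Ta.13337.2.S1_at and Ta.13337.2.S1_x_at. Such probe-sets may read the same sequence, so their like calls at 5 weeks are not independent. Cluster Ta.2789 had 4 members, of which 2 read LOC542773. All 4 were lower in leaf than in crown at 5 weeks, by -4.91 to -4.45 log2, and their leaf means of 9 weeks were 10.8 to 16.0 times those of 3 weeks. Ta.2789.1.S1_at stood at 0.04 and 0.039, then 0.087 and 0.08, then 0.653 and 0.614 in leaf, against 1.709 to 2.236 on the 6 crown arrays. Cluster Ta.2278 also had 4 members, all lower in leaf at 5 weeks (-4.45 to -1.73 log2), with leaf ratios of 16.0 to 49.1. A further probe-set of that cluster, Ta.2278.1.S1_x_at, had a leaf ratio of 21.8 and a crown ratio of 2.27, which left it out. The 3 members of Ta.1207 were all higher in leaf at 5 weeks (3.20 to 3.57 log2), with leaf ratios of 5.34 to 6.89. The 3 members of Ta.24857 were higher by 1.92 to 6.33 log2, with leaf ratios of 10.3 to 13.5, while the other probe-set of that cluster had a ratio of 1.01.

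Of the 19 clusters with 2 members, both were higher in leaf at 5 weeks in Ta.13337, Ta.21314, Ta.21354, Ta.22619, Ta.22628, Ta.23340, Ta.23348, Ta.3976, TaAffx.108556, TaAffx.110081, TaAffx.128684 and TaAffx.24475, and both were lower in Ta.21262. Among these, Ta.23348 differed by 3.26 and 3.68 log2 and Ta.21314 by 2.42 and 2.44. TaAffx.24475 lay close to the 2-fold limit, with 1.03 log2 for its lower member, and both its calls were lost without the first 5-week leaf array. In Ta.13371, Ta.21793, Ta.3475 and TaAffx.107478 neither member was called. The members of the remaining 2 clusters differed in call. Ta.21438.1.A1_at was called higher (1.02 log2, SE 0.30, adjusted p = 0.0189), a call lost without the first 5-week leaf array (0.49), and Ta.21438.2.A1_x_at was not called (0.70), and their leaf means rose 37.7 and 11.3 times. Ta.3869.1.S1_at was higher (1.85 log2, SE 0.15, adjusted p = 1.42e-05) and Ta.3869.2.S1_at was not called (0.41), with rises of 15.3 and 6.95 times. In all, 59 of the clusters held 107 further probe-sets, of which 50 (46.7%) had a leaf mean at 9 weeks at least 2 times that at 3 weeks and 2 had one lower by at least 2-fold. Among all probe-sets 6.03% had such a rise. Of the 107, 12 had met the leaf part of the rule and left by the crown part.

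Of the 13 genes with a symbol, 7 were higher in leaf than in crown at 5 weeks in Harnesk, 3 were lower and 3 passed in neither direction. The higher ones were LOC542838, LOC543235, LOC543492, LOC543342, LOC543330, LOC100037560 and LOC543287. LOC543342 (Ta.27762.1.S1_x_at) stood at 2.429 and 2.276, then 9.86 and 5.152, then 30.7 and 31.14 in leaf at 3, 5 and 9 weeks, against 0.242 to 0.388 in crown, a difference of 4.86 log2 at 5 weeks (SE 0.27, adjusted p = 1.63e-06). LOC543330 (Ta.28.1.S1_at) stood at 1.604 and 0.989, then 4.714 and 1.189, then 35.05 and 37.13 in leaf, against 0.263 to 0.537 in crown. Its 5-week leaf arrays lay far apart, and the difference of 3.08 log2 has an SE of 0.52 (adjusted p = 0.00118). The calls of LOC543330 and of LOC543287 were lost in the methods' t-test, with and without adjustment. LOC543287 (Ta.82.1.S1_at) stood at 2.436 and 1.706, then 4.286 and 2.299, then 28.65 and 27.48 in leaf, and LOC100037560 (Ta.3976.1.S1_at) at 1.652 and 1.549, then 3.32 and 2.922, then 21.23 and 21.81. LOC543492 (Ta.221.1.S1_at) stood at 1.179 and 0.946, then 2.583 and 1.877, then 11.12 and 11.42, and LOC542838 (Ta.10084.1.S1_at) at 1.397 and 1.323, then 2.861 and 2.341, then 7.656 and 7.207. In each of these 6 the 9-week leaf arrays were well clear of the earlier ones.

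LOC542774, LOC542773 and LOC606308 were lower in leaf than in crown at 5 weeks. LOC606308, read by a pair of probe-sets of cluster Ta.21262, stood at 0.266 and 0.335 in leaf at 3 weeks on Ta.21262.1.A1_at, 0.278 and 0.382 at 5 weeks and 3.824 and 3.595 at 9 weeks, against 0.915 to 1.471 in crown. Its difference at 5 weeks was -1.75 log2 (SE 0.18, adjusted p = 5.63e-05), and the 3-week and 5-week leaf arrays overlapped. LOC543498, LOC543197 and LOC780687 passed in neither direction, with differences of 0.09, 0.01 and, on the 2 probe-sets of LOC780687, 0.36 and -0.03 log2. LOC780687 stood at 0.233 and 0.128, then 1.883 and 1.086, then 4.195 and 4.321 in leaf on Ta.3475.1.A1_at, against 0.846 to 1.155 in crown. Among the genes with a symbol, 2 pairs share a chromosome in the RefSeq table. LOC543492 and LOC100037560 have 542 annotated genes between them, and LOC542774 and LOC780687 have 0. The calls of this adjacent pair at 5 weeks differed, with LOC542774 lower in leaf by -2.47 log2 and LOC780687 not called. By 5 weeks LOC780687 had covered 66.0% (Ta.3475.1.A1_at) and 43.6% (Ta.3475.2.S1_at) of its log2 rise in Harnesk leaf and LOC542774 50.8%, all above the upper quartile of the members, 41.5%. LOC543498, with 47.3%, and LOC543342, with 43.0%, were above that quartile as well, so this is not particular to the adjacent pair.

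The tissue difference of the members was also present in the controls. Over the 3 control leaf arrays against the 3 control crown arrays, with week as a block, limma called 108 of the 188 (57.4%) higher in leaf and 24 (12.8%) lower, against 7.76% and 9.15% of all probe-sets. The median difference was 2.15 log2 over the members and 0.004 over all. Of the 107 members higher in Harnesk leaf at 5 weeks, 86 were higher in control leaf and 0 lower. Of the 31 lower in Harnesk leaf, 22 were lower in control leaf and 1 was higher. That 1, Ta.28584.1.A1_at, named after its values were seen, stood at 0.341 and 0.261 in Harnesk leaf at 5 weeks against 0.816 and 0.72 in Harnesk crown, and at 11.86, 2.591 and 10.26 in control leaf at 3, 5 and 9 weeks against 0.165, 0.345 and 2.005 in control crown. The methods' t-test with adjustment called 26 members higher and 9 lower in control leaf.

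The course over the weeks in control leaf did not resemble that in Harnesk leaf for most members. There is 1 control array per week, so these changes have no test. Median levels of the 188 in control leaf were 4.11, 1.53 and 2.84 at 3, 5 and 9 weeks. At 5 weeks 103 members were lower than at 3 weeks by at least 2-fold and 9 were higher, against 1.86% and 0.333% of all probe-sets. At 9 weeks 75 were higher than at 5 weeks by at least 2-fold and 2 were lower, against 10.8% and 2.94% of all. The 9-week array was at least 2-fold lower than the 3-week array for 66 members and higher for 21, against 3.36% and 11.2% of all. Past 5-fold, 8 were lower and 10 higher, against 0.204% and 0.391% of all. The fall between 3 and 5 weeks does not involve the 9-week array that stands apart. The 5-week array was the lowest of the 3 for 138 members, against 27.0% of all probe-sets, and by at least 2-fold on both sides for 49, against 0.499% of all. Of the 107 members higher in Harnesk leaf at 5 weeks, 78 fell at least 2-fold between 3 and 5 weeks in control leaf, compared with 5 of the 31 that were lower and 20 of the 50 others. At 3 weeks, before the temperature was lowered for Harnesk, the control leaf array was above both Harnesk leaf arrays for 156 members, against 34.4% of all probe-sets. That comparison takes in the low 3-week values by which the members were chosen, and the difference in variety and in scale. At 5 weeks, which the rule did not use, the control leaf array was above both Harnesk leaf arrays for 64 members and below both for 89, against 39.3% and 38.7% of all.

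**Figure D5:**
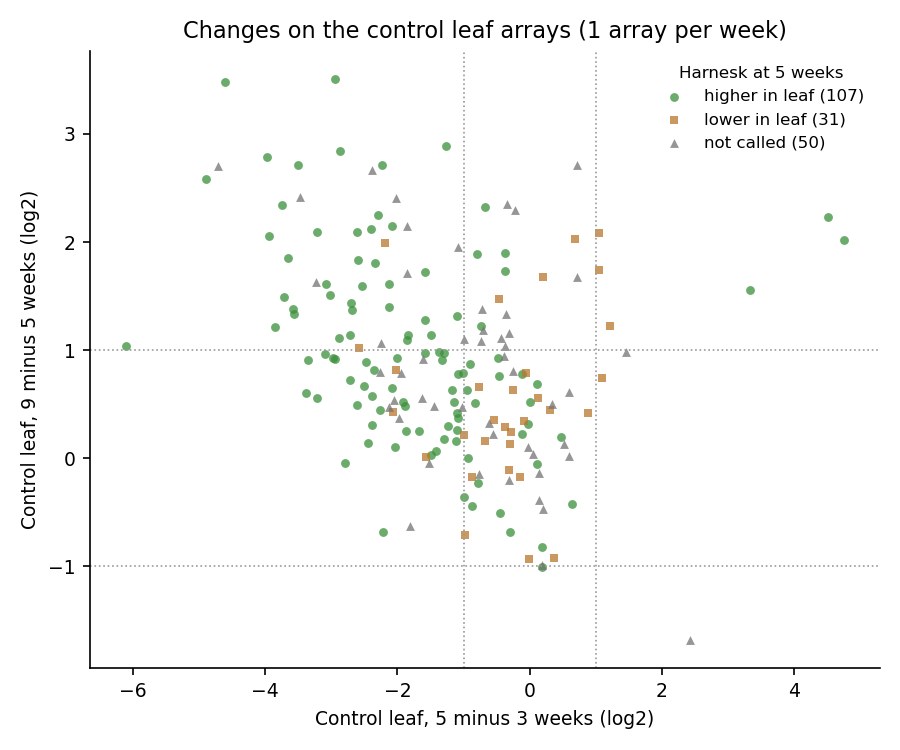
Change in control leaf (log2) between 3 and 5 weeks (x axis) and between 5 and 9 weeks (y axis) for the 188 probe-sets, 1 array per week, marked by the call of leaf against crown in Harnesk at 5 weeks, with dotted lines at 2-fold. Most points lie at upper left, a fall and then a partial return, and 3 lie at far right and above 1, where the level climbed steeply at both steps.

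The fall was steepest for TaAffx.54541.1.S1_at, which stood at 98.08, 1.43 and 2.939 in control leaf at 3, 5 and 9 weeks, 33.4-fold lower at 9 weeks than at 3 weeks, and at 0.81 to 0.895 in control crown. Its control leaf level at 3 weeks was near that of Harnesk leaf at 9 weeks. Ta.22968.1.S1_at stood at 5.802, 1.249 and 0.778, Ta.20519.1.S1_at at 9.304, 1.346 and 1.312, Ta.3976.2.S1_x_at at 16.59, 1.583 and 2.399 and TaAffx.110726.1.S1_s_at at 9.338, 1.01 and 1.492. These fell 6.26-fold to 7.46-fold between 3 and 9 weeks, whereas in Harnesk leaf each rose at least 7.77-fold. Genes with a symbol behaved in this way too. LOC543330 stood at 37.33, 2.387 and 16.52 in control leaf, LOC543287 at 37.03, 1.515 and 16.95, LOC100037560 at 28.91, 2.446 and 6.168 and LOC543342 at 19.1, 2.939 and 7.95. All 4 were highest at 3 weeks and lowest at 5 weeks.

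A few members climbed in control leaf as they did in Harnesk leaf. Ta.13337.2.S1_x_at stood at 0.727, 19.56 and 79.58 in control leaf at 3, 5 and 9 weeks and Ta.13337.2.S1_at at 0.755, 17.17 and 80.54, rises of 109-fold and 107-fold, with 0.407 to 1.961 in control crown over both. At each harvest these control levels lay within 2-fold of the Harnesk leaf means. Ta.28289.2.S1_x_at stood in Harnesk leaf at 2.087 and 2.17, then 2.261 and 2.883, then 55.8 and 56.6, whereas in control leaf it was at 2.432, 24.41 and 71.92. It was thus high at 5 weeks in control leaf and not in Harnesk leaf, and it also stood at 1.13, 0.707 and 13.61 in control crown. TaAffx.83002.1.S1_s_at stood at 0.947, 1.548 and 10.11 and Ta.6121.3.S1_a_at at 0.128, 0.264 and 1.115 in control leaf. In all, 23 members (12.2%) rose or held at each step in control leaf, against 19.4% of all probe-sets.

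The genes that began low in Harnesk leaf stayed low in the controls in several cases. LOC542774 stood at 0.071, 0.091 and 0.048 in control leaf and 0.845, 1.078 and 0.569 in control crown, a difference over the 3 weeks of -3.57 log2 (SE 0.16, adjusted p = 0.000235). LOC542773 on Ta.2789.1.S1_at stood at 0.033, 0.018 and 0.016 in control leaf and 1.568, 2.472 and 1.389 in control crown (-6.37 log2, SE 0.31, adjusted p = 0.000306). LOC780687 on Ta.3475.1.A1_at stood at 0.23, 0.261 and 0.131 in control leaf and 0.735, 0.939 and 0.547 in control crown (-1.86 log2, SE 0.18, adjusted p = 0.00204). On its other probe-set, Ta.3475.2.S1_at, it stood at 0.451, 0.363 and 0.315 in control leaf and 0.896, 0.55 and 0.424 in control crown. That probe-set was not called (-0.67 log2, SE 0.19). In these 3 genes the control leaf level at 9 weeks was under that at 3 weeks, while in Harnesk leaf it was many times higher. LOC543498, in contrast, stood at 1.988, 2.499 and 3.526 in control leaf and was higher there than in control crown by 2.05 log2 (SE 0.20, adjusted p = 0.00247). LOC606308 on Ta.21262.1.A1_at stood at 1.097, 0.902 and 1.066 in control leaf and was not called against control crown (-0.31 log2, SE 0.53). LOC543197 stood at 1.208, 1.824 and 1.844 in control leaf and was not called either (0.95 log2, SE 0.52).

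The rule bounded the change in Harnesk crown and not that in control crown, which is given here on its own, with 1 array per week. At 9 weeks 45 members were at least 2-fold higher than at 3 weeks and 13 were lower, against 11.5% and 4.86% of all probe-sets, with medians of 0.14 log2 over the members and 0.00 over all. The 3-week crown array is the one with the wide spread. Between 5 and 9 weeks, without that array, 35 members were higher and 5 lower, against 3.91% and 1.37% of all.

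The members were set beside the probe-sets that met the leaf part of the rule but not the crown part, 150 with a crown ratio above 1.5 and 12 with one under 0.67, with no test. Between 3 and 5 weeks in control leaf, 54.8% of the members fell at least 2-fold and 4.79% rose, beside 40.0% and 4.00% of the 150 and 16.7% and 16.7% of the 12. Between 3 and 9 weeks 35.1% of the members fell and 11.2% rose, beside 32.7% and 8.67% of the 150 and 0% and 50.0% of the 12. In control crown 23.9% of the members, 48.0% of the 150 and 58.3% of the 12 rose at least 2-fold between 3 and 9 weeks.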

How the data were processed

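The deposited values are linear ratios, made by the authors from Affymetrix Wheat Genome Array images. Per the labels and the methods, images were extracted with Microarray Suite, and RMA was applied to each chip and each gene was then divided by its median in GeneSpring. No raw intensities were used, and the number of arrays limits the precision. The 12 Harnesk and 6 control arrays were used, and the 24 Paragon and vernalised Solstice arrays were left out because of their row order.

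Here log2 was taken of the ratios with no further normalisation and no filter (lowest value 0.01). Leaf was compared with crown in limma 3.58.1 (R 4.3.3), on the 4 Harnesk arrays of 5 weeks and, with week as a block, on the 6 control arrays, with Benjamini-Hochberg adjustment over 61179 probe-sets. A call needed an adjusted p under 0.05 and a 2-fold difference. Harnesk replicates are pools of 4 plants, so p-values of the Harnesk test measure the spread between pools. In the control test, with 1 array per tissue and week, they measure how far the leaf minus crown difference varied between weeks. In both tests limma draws a probe-set's spread towards a value shared by all probe-sets, so it is only partly that probe-set's own. Changes in the controls over time, with 1 array per week, have no test. Symbols came from the platform's annotation and the RefSeq gene table. Nothing here gives the sequences of the probe-sets. The fits were tested on simulated data.

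The members, lists and tests were chosen with earlier results of these data known. Members named are those with a symbol, the 10 with the largest leaf ratio, the 5 highest and 5 lowest in control leaf 9 over 3 weeks and in leaf minus crown at 5 weeks, those in clusters with several members, and those next to the 5-fold threshold. Alternatives were quantile normalisation, centring on the median, a filter on low ratios, the methods' t-test, a prior variance that follows the mean level, models with more arrays, the replicate number as a block, other thresholds, and leaving out each array in turn. Tables and figures were made in Python 3.11.15 with numpy 2.4.6, pandas 2.3.3 and matplotlib 3.10.9.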

Additional observations from a re-analysis of the deposited data

Results flagged for a closer look

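For 31 of the probe-sets named above, the level on both Harnesk leaf arrays was at least 5-fold higher at 9 weeks than at 3 weeks, while in control leaf it was at least 2-fold lower. With 1 control array per week, and a 9-week control array that stands apart, the difference between Harnesk and the controls was not tested, and the Harnesk rise chose the members. The 5 members lowest in control leaf 9 over 3 weeks were named for that ratio, so their fall was fixed by the choice. Of all 188 members, 66 (35.1%) fell at least 2-fold between these weeks in control leaf, against 3.36% of all probe-sets. The change in control leaf, 9 minus 3 weeks, was -5.06 log2 for TaAffx.54541.1.S1_at, -2.90 for Ta.22968.1.S1_at, -2.83 for Ta.20519.1.S1_at, -2.65 for TaAffx.110726.1.S1_s_at and -2.31 for Ta.20121.1.S1_x_at. It was -1.42 for Ta.14946.1.S1_at. In cluster Ta.3976 it was -2.79 for Ta.3976.2.S1_x_at and -2.23 for Ta.3976.1.S1_at (LOC100037560). Among the other genes with a symbol it was -2.04 for LOC543492, -1.41 for LOC543235, -1.26 for LOC543342, -1.18 for LOC543330 and -1.13 for LOC543287. For LOC542773 it was -1.04 on Ta.2789.1.S1_at, between levels of 0.033 and 0.016, near the lowest value of the table, 0.01. On Ta.2789.1.S1_a_at, which also reads LOC542773, it was -0.17. On Ta.2789.2.S1_at and Ta.2789.2.S1_x_at of the same cluster it was -0.32 and -0.42. In cluster Ta.2278 it was -1.63 for Ta.2278.2.S1_x_at, -1.56 for Ta.2278.2.S1_at, -1.55 for Ta.2278.3.S1_x_at and -1.21 for Ta.2278.2.S1_a_at. In cluster Ta.1207 it was -1.01 for Ta.1207.1.S1_at, -1.93 for Ta.1207.1.S1_s_at and -1.36 for Ta.1207.1.S1_x_at. Both members fell in each of 5 more clusters, with changes of -2.45 and -2.20 in Ta.23348, -1.83 and -2.31 in Ta.21354, -1.81 and -1.58 in TaAffx.108556, -1.47 and -1.51 in Ta.21314 and -1.46 and -1.16 in TaAffx.107478. Over all members the median of this change was -0.53 log2, and over all probe-sets it was -0.10.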

How the results depend on the processing

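The count of members moved with the leaf threshold, to 288 at 4-fold, 95 at 8-fold and 73 at 10-fold. It was 130 to 253 under the other alternatives, 139 with quantile normalisation. Membership itself changed more than this count shows. Of the 188 members, 128 were still members with quantile normalisation and 186 with centring on the median. The description of the other members therefore depends on leaving the ratios without quantile normalisation. At 5 weeks 90 to 112 members were higher in Harnesk leaf and 26 to 32 lower under the alternatives, save that the t-test of the methods, once adjusted by Benjamini-Hochberg, gave 66 and 23, and that the filter on low ratios left 0 lower, also at an unadjusted p under 0.05, because it removed them. Leaving out 1 array gave 97 to 112 higher and 30 to 31 lower. In the controls 87 to 109 were higher in leaf and 17 to 24 lower, save for 26 and 9 with the adjusted t-test and 5 lower with the filter. Leaving out a control array gave 91 to 101 and 17 to 21. With week as a block, the other array of that week then adds nothing to the difference. Each such run therefore leaves out a whole week, and leaf and crown of a week gave the same counts. With a replicate block, 107 were higher and 31 lower, as without it. Replicate numbers were not taken as pairs, since 0 of 15 pairs of conditions had replicate differences that correlated over 0.1.

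In control leaf, 9 over 3 weeks, 21 members rose and 66 fell past 2-fold, 10 and 8 past 5-fold, and 38 rose past 1.5-fold. Chosen after seeing the data, 5 over 3 weeks gave 9 and 103, and 9 over 5 weeks 75 and 2. The share of the leaf rise reached at 5 weeks was 27.3%, and 23.8% to 32.2% with either 5-week leaf array. Of 1035 values of leaf minus crown at 5 weeks for 76 named probe-sets, 986 kept their call, 41 lost it and 8 changed sign. Of the 41, 32 were lost in the methods' t-test. Those of LOC543330, LOC543287, Ta.22968.1.S1_at, Ta.2278.3.S1_x_at, Ta.24857.2.S1_x_at, TaAffx.108556.1.S1_at, Ta.21438.1.A1_at and the pair of TaAffx.24475 were lost there without adjustment too, and among those lost with adjustment alone were LOC606308, Ta.7445.1.S1_x_at and TaAffx.54541.1.S1_at. The other 9 concerned Ta.21438.1.A1_at, Ta.22968.1.S1_at, TaAffx.54541.1.S1_at and the pair of TaAffx.24475, all near 2-fold, under centring or without 1 array. The 8 were values near 0 that carried no call. Ta.21350.1.S1_x_at became -0.09 with quantile normalisation, -0.08 with centring and -0.09 to 0.10 without a leaf replicate. Ta.22673.1.S1_s_at became -0.04, -0.0009 and -0.10 to 0.28, Ta.3475.1.A1_at -0.04 to 0.76 and Ta.3475.2.S1_at -0.16 to 0.10 without a leaf replicate. With 2 arrays per condition and 1 per control condition, small differences could not be resolved.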
